A study of Mus musculus with 32 samples.

Results

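The comparison described here is of mouse cortex after 24 h of reperfusion with mouse cortex after 2 h of reperfusion, following a stroke. It comprises 8 of the 32 samples of the series, 4 in each group, chosen by their labels alone. All animals were male wild-type mice on a C57BL/6J background, 8 to 10 weeks old. In both groups a filament blocked the middle cerebral artery for 2 h and was then withdrawn, so that both carried the same occlusion and differed in the reperfusion time of 24 h or 2 h. The right cortex of the infarct area was taken, and messenger RNA was measured on Illumina bead arrays, on which each gene is read by beads that carry a probe for it. The remaining samples are cortex at 8 h of reperfusion, cortex of sham mice (anaesthesia and a neck incision only), and the same 4 groups of striatum. The labels do not say whether an array stands for 1 animal, so that p-values measure the spread between these samples. Filament occlusion reaches both the cortex and the striatum, and its infarct size varies between animals.

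In an ischaemic cortex, neurons at the border of the infarct depolarise repeatedly, and calcium entry switches on immediate early genes such as Fos and Egr1 within minutes. Their products then control effector genes of synapses and growth factors. Damaged cells release signals that make microglia, astrocytes and vessel walls produce chemokines and acute phase proteins, which draw neutrophils and monocytes from the blood over the following hours. Interferon signalling through the STAT proteins is a further branch of this response. Endothelial cells form the blood-brain barrier with tight junction proteins such as claudin 5, and neurons in the core die and lose their transcripts.

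Levels are given as log2 of the background-corrected, quantile-normalised intensity, and a change is the mean level at 24 h minus that at 2 h, with its standard error. The levels of 1 gene are listed for replicates 1 to 4, and the 24 h and 2 h arrays of the same replicate number lay on the same slide. Between 50.1% and 53.95% of probes were detected on these 8 arrays. The 24 h arrays lay at one position of each slide and the 2 h arrays at another, so array position and time cannot be told apart. The 4 arrays of 24 h varied more than those of 2 h, with a median SD per gene of 0.197 against 0.139. On 24 h replicate 2 the called genes lay on average 0.384 away from the 2 h mean in the called direction, against 0.842, 0.589 and 0.691 on 24 h replicates 1, 3 and 4. Where a list count moved by over 1.5 times when 1 array was left out, the lowest or highest such count is given too, over the same members. Arrays joined there by "or" were left out 1 at a time. The neuron marker Slc17a7, the astrocyte marker Gfap, the microglia marker Cx3cr1 and the myelin gene Mbp were detected on all 8 arrays. In a tissue sample, fewer cells of a type and less RNA per cell cannot be told apart.

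With limma at an adjusted p under 0.05, 1302 of 9565 genes (13.6%) differed between 24 h and 2 h. Of these, 617 (6.45%) were higher and 685 (7.16%) were lower at 24 h. The rises were the larger changes: 124 genes (1.3%) were at least 2-fold higher, against 30 (0.314%) at least 2-fold lower. The 4 arrays of 24 h lay wholly above the 4 of 2 h for 698 genes (7.3%) and wholly below them for 761 (7.96%). The same direction on all 4 slides was seen for 578 of the 617 higher and 647 of the 685 lower genes (the genes were called on these same slides). Without 24 h replicate 2, 1095 rose and 1117 fell of 9754 genes. The median change of all tested genes was -0.02.

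By group means alone, with no test against sham, most called genes lay on opposite sides of sham at the 2 times. The sham mean fell between the 2 h and 24 h means for 409 of the 617 higher genes and 512 of the 685 lower ones. Both I/R means were above sham, the 24 h mean further, for 178 of the higher genes, and both were below it, the 24 h mean further, for 140 of the lower ones. The 8 h mean lay between the 2 h and 24 h means for 513 and 575 genes, and in 363 and 385 of these it was nearer to 2 h. The genes were picked for their gap between 2 h and 24 h, into which another group mean can readily fall. The same counts over all tested genes were not made, so these describe the called genes only.

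Grouped by function, the higher genes included most markers of macrophages, endothelium and interferon signalling, and the lower genes included many that neuronal activity induces. The plot of called list members sets these shares beside the share of all genes.

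**Figure D1:**
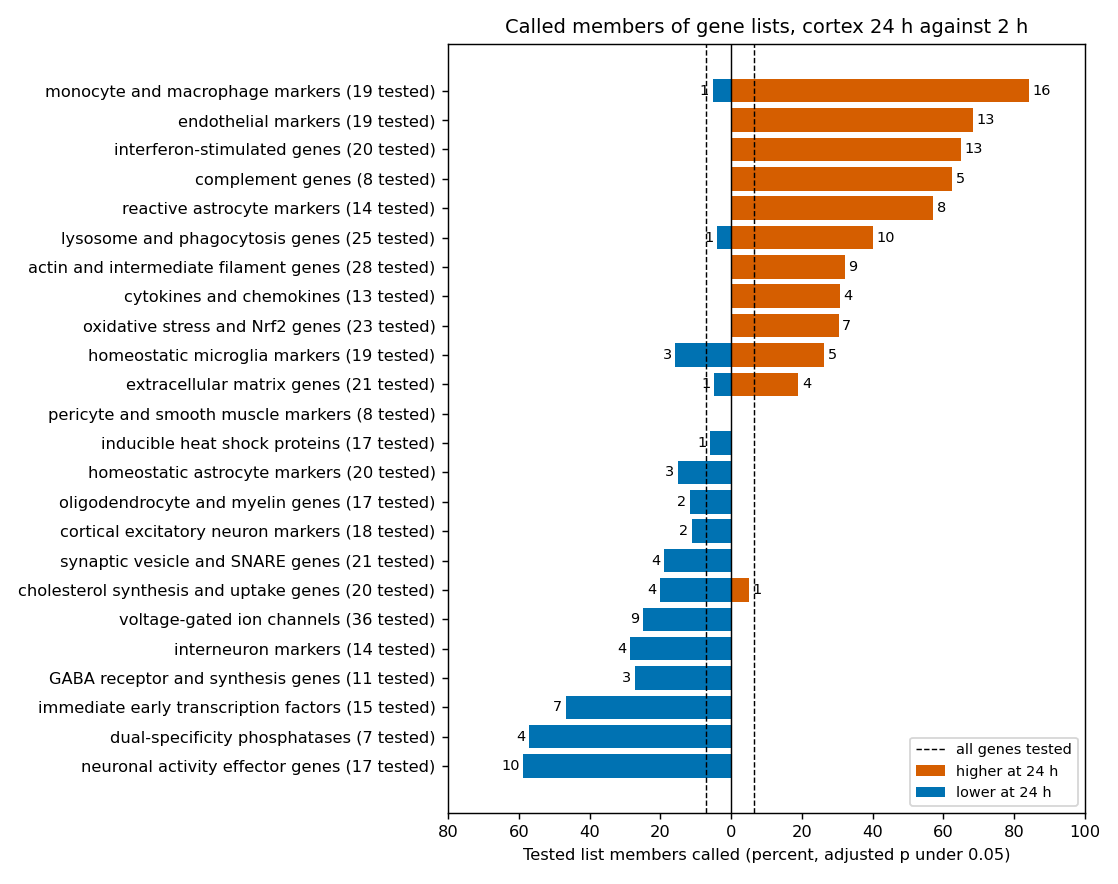
Share of the tested members of 24 gene lists called higher (orange, right) or lower (blue, left) at 24 h than at 2 h, with the number called beside each bar and dashed lines at the share of all 9565 genes (6.45% higher, 7.16% lower). Macrophage, endothelial and interferon lists extend furthest to the right, and activity-induced lists furthest to the left.

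Genes that neuronal activity switches on were lower at 24 h than at 2 h. Of 15 tested immediate early transcription factors, 0 rose and 7 fell, with a median change of -0.82; 13 of the 15 changes were below 0. Fosb had levels of 7.57, 6.60, 6.52 and 6.04 on the 24 h arrays, against 10.42, 8.37, 9.04 and 9.77 on the 2 h arrays. Fosb, a partner of Jun proteins in the AP-1 factor, was thus lower on every 24 h array than on any 2 h array (-2.72 ± 0.35, adjusted p = 0.000267). Npas4 had levels of 7.21, 6.48, 6.44 and 6.33 on the 24 h arrays, against 11.07, 7.06, 8.06 and 10.49 on the 2 h arrays. The 2 h arrays of Npas4, a factor found mainly in neurons, ran over a wide range, with replicates 1 and 4 high and replicate 2 low (-2.56 ± 0.65, adjusted p = 0.0148). Its lowest 2 h array was within the range of the 24 h arrays. Egr4 had levels of 8.28, 9.72, 9.10 and 8.61 on the 24 h arrays, against 12.14, 9.92, 10.54 and 11.09 on the 2 h arrays. All 24 h arrays of this zinc finger factor were below all 2 h arrays, by little on replicate 2 (-1.99 ± 0.35, adjusted p = 0.00169). Its relatives Egr2 (-1.78 ± 0.50, adjusted p = 0.0254) and Egr1 (-0.82 ± 0.21, adjusted p = 0.0139) also fell, as did the orphan nuclear receptor Nr4a2 (-1.56 ± 0.33, adjusted p = 0.00593) and the AP-1 member Junb (-1.08 ± 0.29, adjusted p = 0.0218). Fos had levels of 10.63, 7.54, 8.84 and 9.73 on the 24 h arrays, against 12.27, 9.31, 10.55 and 11.53 on the 2 h arrays. Fos was lower at 24 h on each of the 4 slides, but the arrays overlapped and the change of -1.73 ± 0.62 did not pass (adjusted p = 0.0723), while it did with slide as a block (adjusted p = 0.0382). Atf3, a stress-induced factor, had a change smaller than its standard error (-0.56 ± 0.81, adjusted p = 0.688).

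The effector genes of activity and the phosphatases that switch off MAP kinases were lower as well. Of 17 tested neuronal activity effector genes, 0 rose and 10 fell, with a median change of -0.51, and all 17 changes were below 0. Bdnf had levels of 7.605, 8.78, 8.57 and 8.16 on the 24 h arrays, against 10.26, 9.22, 9.50 and 9.80 on the 2 h arrays. Every 24 h array of this neurotrophin was below every 2 h array, and replicate 1 was at once the lowest at 24 h and the highest at 2 h (-1.42 ± 0.25, adjusted p = 0.00166). Arc had levels of 8.91, 8.49, 8.93 and 8.04 on the 24 h arrays, against 11.15, 9.01, 9.56 and 10.78 on the 2 h arrays. Arc, which acts in receptor uptake at synapses, was lower on all 24 h arrays than on any 2 h array (-1.53 ± 0.40, adjusted p = 0.0163). Nptx2, which clusters AMPA receptors (-1.20 ± 0.35, adjusted p = 0.0282), and Homer1, a scaffold of the postsynaptic density (-0.81 ± 0.12, adjusted p = 0.000494), fell too. The kinase gene Sik1 was detected on all 2 h arrays and on no 24 h array, and was at least 1.33-fold lower (adjusted p = 0.0259). Of 7 tested dual-specificity phosphatases of MAP kinases, 0 rose and 4 fell, with a median change of -0.77. Dusp6 (-1.02 ± 0.14, adjusted p = 0.000308), Dusp14 (-0.77 ± 0.12, adjusted p = 0.000753), Dusp4 (-1.11 ± 0.30, adjusted p = 0.021) and Dusp1 (-0.83 ± 0.27, adjusted p = 0.0454) were the called members. Relative to sham, the median of the 17 effector genes was 0.55 in 2 h cortex, 0.21 in 8 h cortex and -0.04 in 24 h cortex. Relative to sham, the median of the 15 immediate early genes was 0.98 in 2 h cortex, 0.29 in 8 h cortex and 0.27 in 24 h cortex. Both lists were thus highest at 2 h.

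The counts of both lists rest partly on single arrays. With 1 array left out, 3 to 9 of the 15 immediate early factors and 4 to 10 of the 17 effector genes fell, with the lowest counts without 2 h replicate 4 and, for the effectors, also without 24 h replicate 4. The phosphatases that fell numbered 2 without 2 h replicate 4, and the immediate early factors that rose 1 without 24 h replicate 2. The calls of Npas4, Egr1, Egr2, Junb, Arc, Nptx2, Dusp4, Dusp1 and Sik1 were each lost without at least 1 array (highest adjusted p over all settings 0.0623, 0.0641, 0.097, 0.0872, 0.0604, 0.0667, 0.0851, 0.142 and 0.0821). Dusp1 was lost without 24 h replicate 2 (adjusted p = 0.0898).

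Outside these lists, the largest falls were in genes of varied roles. Tmcc3, a membrane protein gene of the endoplasmic reticulum, had levels of 6.31, 5.56, 6.14 and 5.84 on the 24 h arrays, against 8.00, 7.18, 7.78 and 7.62 on the 2 h arrays. The groups were well apart (-1.68 ± 0.22, adjusted p = 0.000308). Sorbs2, an adaptor of the actin cytoskeleton (-1.33 ± 0.15, adjusted p = 6.84e-05), Tmem114, a transmembrane protein gene (-1.29 ± 0.17, adjusted p = 0.000308), Rem2, a small GTPase that limits calcium channels (-1.17 ± 0.29, adjusted p = 0.0131), and Tenm1, a teneurin of synaptic adhesion (-1.07 ± 0.19, adjusted p = 0.00174), fell on non-overlapping arrays. So did Arl4d, a small GTPase (-1.12 ± 0.23, adjusted p = 0.00477), and Mlf1 (-1.14 ± 0.29, adjusted p = 0.0154). Sorbs2 and Tenm1 lay below sham at 24 h (means 5.45 ± 0.28 and 5.77 ± 0.38, against 6.33 ± 0.24 and 6.43 ± 0.18 in sham; SD, n = 4 each).

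**Figure D2:**
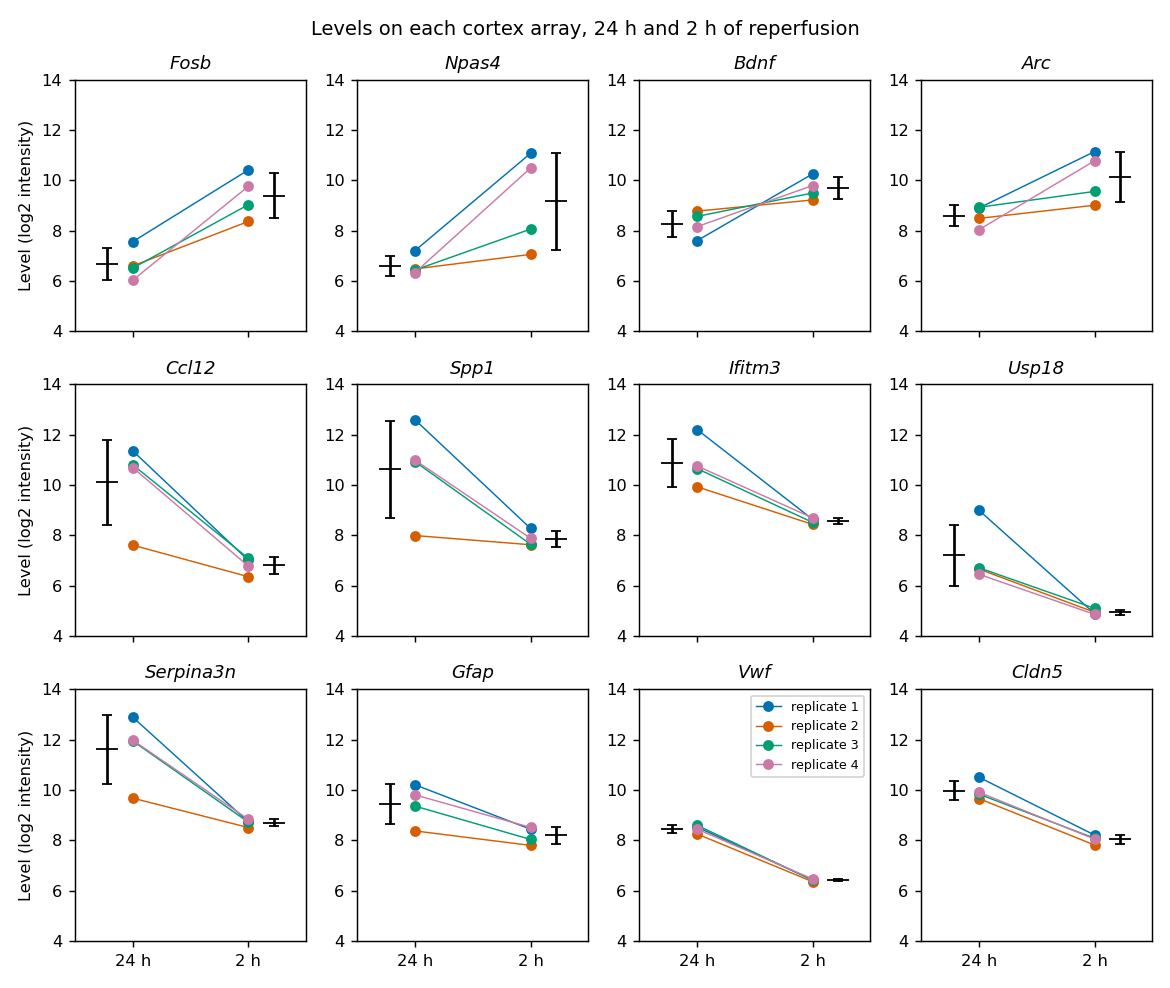
Levels (log2 intensity) of 12 genes on each cortex array at 24 h (left) and 2 h (right), with lines joining arrays of the same slide and black marks for the mean ± SD of 4 arrays. Replicate 2 (orange) is the lowest 24 h array for Ccl12, Spp1 and Serpina3n, while Vwf and Cldn5 differ by similar amounts on all 4 slides.

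Interferon-stimulated genes were higher at 24 h. Of 20 tested interferon-stimulated genes, 13 rose and 0 fell, with a median change of 1.06, and all 20 changes were above 0. Their induction is known to run through a response element (GAAA, any 2 bases, GAAA, on either strand) bound by interferon-activated factors. RefSeq promoter windows (GRCm38.p6, 250 bases before to 50 after the start) were matched for 10 of the 13 called members, and 6 held the element, against 267 of 7602 tested genes with a window (3.51%). A match describes the letters only. The bases before the start of the 3 called members with the largest changes and a match there are printed 5′ to 3′, with matches in capitals. The printed stretch of Gbp2 is chr3:142620413-142620662 on the plus strand, that of Ifitm2 chr7:140955962-140956211 on the minus strand and that of Isg15 chr4:156200819-156201068 on the minus strand.
Gbp2: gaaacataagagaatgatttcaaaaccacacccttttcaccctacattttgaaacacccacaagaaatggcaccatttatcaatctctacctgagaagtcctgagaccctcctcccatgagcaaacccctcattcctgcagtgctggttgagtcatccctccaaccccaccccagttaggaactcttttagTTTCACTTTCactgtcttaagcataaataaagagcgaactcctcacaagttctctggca
Ifitm2: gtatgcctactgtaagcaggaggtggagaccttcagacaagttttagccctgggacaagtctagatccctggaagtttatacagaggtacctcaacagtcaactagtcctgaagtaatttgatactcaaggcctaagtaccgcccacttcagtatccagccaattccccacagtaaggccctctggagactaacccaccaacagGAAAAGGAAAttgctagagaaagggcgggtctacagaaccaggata
Isg15: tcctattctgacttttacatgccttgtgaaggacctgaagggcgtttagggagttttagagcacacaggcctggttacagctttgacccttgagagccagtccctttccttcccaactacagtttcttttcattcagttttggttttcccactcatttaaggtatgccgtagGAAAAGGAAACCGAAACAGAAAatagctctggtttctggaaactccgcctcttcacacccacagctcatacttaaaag
The first match begins 59, 46 and 78 bases before the start in Gbp2, Ifitm2 and Isg15. Isg15 holds 3 overlapping matches, which form 1 run of capitals.

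Gbp2 had levels of 9.81, 7.04, 8.14 and 8.25 on the 24 h arrays, against 6.64, 6.21, 6.77 and 6.72 on the 2 h arrays. This GTPase of antimicrobial defence rose (1.73 ± 0.38, adjusted p = 0.00739), with replicate 1 the highest and replicate 2 the lowest 24 h array. Ifitm2 had levels of 10.84, 8.80, 9.90 and 9.96 on the 24 h arrays, against 8.50, 8.34, 8.33 and 8.36 on the 2 h arrays. Isg15 had levels of 9.52, 7.08, 7.41 and 7.27 on the 24 h arrays, against 6.27, 6.23, 6.81 and 6.19 on the 2 h arrays. Both Ifitm2, a membrane protein that limits virus entry (1.49 ± 0.26, adjusted p = 0.00169), and Isg15, a ubiquitin-like modifier (1.44 ± 0.39, adjusted p = 0.0205), were higher on all 24 h arrays than on any 2 h array. Ifitm3 had levels of 12.21, 9.94, 10.66 and 10.76 on the 24 h arrays, against 8.64, 8.44, 8.52 and 8.70 on the 2 h arrays. Its groups did not overlap (2.32 ± 0.29, adjusted p = 0.000226). Oasl2 had levels of 9.31, 7.22, 6.79 and 7.07 on the 24 h arrays, against 5.39, 4.97, 5.13 and 4.97 on the 2 h arrays. Oasl2, a relative of the oligoadenylate synthetases, was far higher on replicate 1 than on the other 24 h arrays (2.48 ± 0.38, adjusted p = 0.000753). Usp18 had levels of 8.997, 6.66, 6.72 and 6.46 on the 24 h arrays, against 4.89, 4.95, 5.10 and 4.86 on the 2 h arrays. Usp18, which removes Isg15 from proteins, was undetected on every 2 h array and was at least 3.63-fold higher at 24 h (adjusted p = 0.00225). The 2 h levels of Oasl2 lay near those of Usp18, so the size of the Oasl2 rise is not exact. Ifi27l2a (1.97 ± 0.47, adjusted p = 0.011) and the immunoproteasome subunit Psmb9 (0.88 ± 0.18, adjusted p = 0.00392) rose likewise. Of 9 antigen presentation genes, 2 rose, Psmb9 and the peptide transporter Tap2 (0.71 ± 0.19, adjusted p = 0.0201); the count was 1 without 2 h replicate 4 and 4 without 24 h replicate 2. Relative to sham, the median of the 20 genes was -0.43 in 2 h cortex, 0.01 in 8 h cortex and 0.84 in 24 h cortex. At 2 h, 5 of the 20 genes had a mean above sham, and at 24 h 19 did. Replicate 1 carried much of the size: the mean over the 20 genes, relative to the 2 h mean, was 2.34, 0.59, 0.91 and 0.87 on 24 h replicates 1 to 4. With the deposited gene table, 8 of the interferon list rose, and the calls of Oasl2, Usp18, Ifi27l2a, Isg15 and Tap2 were lost (highest adjusted p over all settings 0.0793, 0.12, 0.0555, 0.0951 and 0.0851). The call of Isg15 was also lost without 2 h replicates 2 or 4 and that of Tap2 without 2 h replicate 4. Both were lost with the 2 groups fitted alone as well.

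The cAMP response element (TGACGTCA) was found in 1 of 5 promoter windows of the called effector genes, that of Plk2, and in 0 of 6 of the called immediate early factors, against 3.59% of tested genes. A match to TGANTCA (N any base, both strands) was in 1 of 5, that of Bdnf, and in 0 of 6, against 6.29%. This pattern is wider than the AP-1 site, which has C or G in the middle, and the Bdnf match read TGAATCA. The only called heat shock gene, Dnajb5, had no heat shock element on either strand, against 0.526% of tested genes.

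Markers of monocytes and macrophages were the list with the largest called share among those plotted. Of 19 tested markers, 16 rose and 1 fell, with a median change of 1.28. Lgals3 had levels of 11.90, 7.35, 10.20 and 10.42 on the 24 h arrays, against 7.58, 6.05, 7.03 and 6.58 on the 2 h arrays. Lgals3, galectin 3 of phagocytic cells, lay clearly higher on 24 h replicates 1, 3 and 4, while replicate 2 was within the range of the 2 h arrays (3.15 ± 0.63, adjusted p = 0.00386). Spp1 had levels of 12.60, 8.00, 10.94 and 10.995 on the 24 h arrays, against 8.28, 7.63, 7.65 and 7.89 on the 2 h arrays. Spp1, the secreted matrix protein osteopontin, showed the same ranking of the 24 h arrays (2.77 ± 0.58, adjusted p = 0.00536). Fcgr4 had levels of 9.44, 6.27, 7.63 and 7.99 on the 24 h arrays, against 5.13, 5.28, 4.996 and 4.96 on the 2 h arrays. This Fc receptor was undetected on every 2 h array and at least 5.6-fold higher at 24 h (adjusted p = 0.000753). Cd52, a surface protein of leukocytes (1.67 ± 0.31, adjusted p = 0.00232), Cd68 of macrophage lysosomes (1.21 ± 0.31, adjusted p = 0.015), Capg, an actin capping protein of macrophages (1.98 ± 0.32, adjusted p = 0.00108), and the hyaluronan receptor Cd44 (1.32 ± 0.37, adjusted p = 0.0239) rose as well. The lysosomal genes moved in the same direction: 10 of 25 rose and 1 fell, among them the protease Ctsc (1.59 ± 0.20, adjusted p = 0.000226). List means relative to the 2 h mean were 2.23, 0.38, 1.31 and 1.47 for the macrophage markers on 24 h replicates 1 to 4. Without 24 h replicate 2, 16 of the 19 markers rose. The single fall among the markers was not called without 24 h replicate 4 or 2 h replicates 1, 2, 3 or 4. The lysosomal rises numbered 5 without 2 h replicate 2, 2 h replicate 4 or 24 h replicate 1. The calls of Cd44 and Cd68 were lost under at least 1 setting (highest adjusted p 0.0772 and 0.051).

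Chemokines and neutrophil genes were less uniform. Of 13 tested cytokines and chemokines, 4 rose and 0 fell, with a median change of 0.66. Ccl12 had levels of 11.36, 7.62, 10.81 and 10.69 on the 24 h arrays, against 7.01, 6.36, 7.09 and 6.78 on the 2 h arrays. Ccl12, a monocyte attractant, had the largest rise of all tested genes (3.31 ± 0.55, adjusted p = 0.00116). Replicate 2 was the lowest 24 h array, still above every 2 h array. Il11, a cytokine of the interleukin 6 family (3.10 ± 0.73, adjusted p = 0.00979), the chemokine Cxcl16 (1.28 ± 0.39, adjusted p = 0.0389) and the macrophage growth factor Csf1 (0.89 ± 0.29, adjusted p = 0.0469) rose, but Il11 was as low on 24 h replicate 2 as at 2 h (levels 10.18, 4.94, 8.01 and 10.04 at 24 h, against 5.39, 4.95, 5.09 and 5.37 at 2 h). The chemokines Ccl3 (-1.21 ± 0.90, adjusted p = 0.393), Ccl4 (-0.81 ± 0.98, adjusted p = 0.621) and Cxcl1 (0.83 ± 0.86, adjusted p = 0.558) and the cytokine Il1b (0.66 ± 0.52, adjusted p = 0.424) did not pass. Their standard errors leave room for changes in either direction. The 2 h levels of Il11 lay near those of Fcgr4, which was undetected at 2 h, so the size of the Il11 rise is not exact. The probes of Il6, Ccl2 and Tnf were not detected on enough arrays to be tested. S100a8 had levels of 10.82, 5.69, 8.73 and 12.77 on the 24 h arrays, against 7.35, 5.77, 6.65 and 7.10 on the 2 h arrays. S100a8, a calcium-binding protein abundant in neutrophils, was high on 24 h replicates 1, 3 and 4, most of all on replicate 4, and its groups overlapped (2.79 ± 0.94, adjusted p = 0.0566). S100a9, its partner, had a change of 2.66 ± 0.92 (adjusted p = 0.0617). With slide as a block both passed (adjusted p = 0.0491 and 0.0424), and they passed without 24 h replicate 2 (adjusted p = 0.000222 and 0.000402). Lcn2, an iron-carrier binding protein of neutrophils and astrocytes, rose (2.28 ± 0.48, adjusted p = 0.00568). Only 5 of 19 neutrophil markers were detected well enough to be tested, and 1 rose, or 4 without 24 h replicate 2. The acute phase genes Saa3 (2.06 ± 0.37, adjusted p = 0.00184) and Lrg1 (2.00 ± 0.27, adjusted p = 0.000308) rose on non-overlapping arrays. Of 19 tested genes of NF-kB feedback and cytokine signalling, 2 rose (10.5%) and 1 fell (5.26%), with a median change of 0.22. These shares lay near those of all genes (6.45% higher, 7.16% lower). The adaptor Myd88 (0.98 ± 0.27, adjusted p = 0.0249) and the receptor Tnfrsf1a (0.96 ± 0.23, adjusted p = 0.0104) were the rises. The calls of Lcn2 (with the series matrix values) and Tnfrsf1a (with the 2 groups alone) were lost at adjusted p of 0.183 and 0.0582. Those of Cxcl16, Csf1 and Myd88 were lost without at least 1 array (highest adjusted p 0.133, 0.159 and 0.093). The list counts depend on single arrays as well. Of the 13 cytokines and chemokines, the rises numbered 2 without 24 h replicates 1, 3 or 4 or 2 h replicates 2, 3 or 4, and 6 without 24 h replicate 2; the falls numbered 1 without 24 h replicate 2. Of the 19 NF-kB and cytokine signalling genes, the rises numbered 1 without 24 h replicates 1 or 4 or 2 h replicates 2, 3 or 4 and 8 without 24 h replicate 2, and the falls 0 without 2 h replicates 1 or 4. With the 2 groups fitted alone, 1 and 0 genes of these lists rose.

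Red cell genes moved with 1 of these arrays. Hba-a1 had levels of 10.05, 8.34, 9.24 and 13.49 on the 24 h arrays, against 10.45, 7.58, 8.92 and 8.40 on the 2 h arrays. The haemoglobin gene was highest on 24 h replicate 4, the array with the highest S100a8, and its change did not pass (1.44 ± 0.84, adjusted p = 0.266). Its part in the neutrophil values was not tested. Of 3 tested lymphocyte markers 0 rose and 0 fell.

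Resident microglia markers moved both ways, the 3 C1q genes of the list being complement genes too. Of 19 tested homeostatic microglia markers, 5 rose and 3 fell, with a median change of 0.09. Cx3cr1 had levels of 9.28, 9.20, 9.17 and 9.28 on the 24 h arrays, against 8.50, 8.98, 8.69 and 8.80 on the 2 h arrays. This fractalkine receptor was higher on all 24 h arrays (0.49 ± 0.10, adjusted p = 0.00536), whereas the lectin Siglech (-0.72 ± 0.18, adjusted p = 0.0156) and the crystallin Crybb1 (-1.04 ± 0.20, adjusted p = 0.00287) fell. P2ry12 had levels of 5.66, 6.96, 5.77 and 5.77 on the 24 h arrays, against 7.33, 6.87, 6.37 and 6.61 on the 2 h arrays. P2ry12, the receptor for ADP that guides microglial processes, fell (-0.75 ± 0.25, adjusted p = 0.0499), and replicate 2 was the 24 h array that overlapped the 2 h arrays. Its call was lost under 15 of the 21 other settings. The microglia markers that rose numbered 3 without 24 h replicates 1, 3 or 4 or 2 h replicates 2, 3 or 4, and 7 without 24 h replicate 2. Of 8 complement genes 5 rose, among them C1qb, which starts the classical pathway (0.71 ± 0.17, adjusted p = 0.0101), C4b (0.88 ± 0.19, adjusted p = 0.00683) and the inhibitor Serping1 (0.92 ± 0.22, adjusted p = 0.0122). The complement genes that fell numbered 1 without 24 h replicate 2. With the 2 groups fitted alone no complement gene passed (adjusted p = 0.0672, 0.051 and 0.0556 for these 3).

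Reactive astrocyte genes were higher at 24 h. Of 14 tested markers, 8 rose and 0 fell, with a median change of 1.28 (0.88, taking members detected in 1 group only at their bound). Serpina3n had levels of 12.88, 9.67, 11.94 and 11.97 on the 24 h arrays, against 8.73, 8.50, 8.72 and 8.83 on the 2 h arrays. Serpina3n, a secreted protease inhibitor, was higher on all 24 h arrays (2.92 ± 0.41, adjusted p = 0.00039). Gfap had levels of 10.20, 8.37, 9.36 and 9.80 on the 24 h arrays, against 8.44, 7.80, 8.03 and 8.51 on the 2 h arrays. The filament protein Gfap (1.24 ± 0.28, adjusted p = 0.00762) was higher at 24 h on all 4 slides, with replicate 2 inside the range of the 2 h arrays. Vim had levels of 10.98, 8.21, 9.76 and 9.78 on the 24 h arrays, against 8.00, 7.33, 7.53 and 7.95 on the 2 h arrays. Vimentin was higher on all 24 h arrays (1.98 ± 0.36, adjusted p = 0.0022). Slc10a6, a steroid sulfate transporter, and Aspg, an asparaginase, were each detected on 3 of the 24 h arrays and on none of the 2 h arrays. Slc10a6 was at least 1.78-fold higher (adjusted p = 0.0434). For Aspg the bound was at least 1.71-fold (adjusted p = 0.0115). Timp1, an inhibitor of metalloproteinases, did not pass (1.64 ± 0.58, adjusted p = 0.069), and passed with slide as a block (adjusted p = 0.0431). Of 20 homeostatic astrocyte markers 3 fell and 0 rose, the falls being the water channel Aqp4 (-0.46 ± 0.12, adjusted p = 0.0165), the serine transporter Slc7a10 (-0.40 ± 0.12, adjusted p = 0.0347) and the gap junction protein Gja1 (-0.37 ± 0.09, adjusted p = 0.00967). The mean of the 14 reactive markers relative to 2 h was 2.40, -0.28, 1.36 and 1.75 on 24 h replicates 1 to 4, so that replicate 2 lay below the 2 h mean. Without that array 13 of these 14 rose. Falls among the homeostatic markers numbered 1 without 2 h replicate 1, and rises 1 without 2 h replicate 1. The calls of Slc10a6, Aqp4 and Slc7a10 were lost under at least 1 setting (highest adjusted p 0.151, 0.0511 and 0.0993).

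Endothelial genes were higher at 24 h. Of 19 tested endothelial markers, 13 rose and 0 fell, with a median change of 1.08. Vwf had levels of 8.52, 8.25, 8.597 and 8.45 on the 24 h arrays, against 6.43, 6.35, 6.41 and 6.46 on the 2 h arrays. Vwf, the clotting protein of endothelial granules, had the smallest adjusted p among the named genes and 2 narrow, separate groups (2.04 ± 0.14, adjusted p = 3.28e-07). Cldn5 had levels of 10.50, 9.65, 9.83 and 9.90 on the 24 h arrays, against 8.20, 7.81, 8.08 and 8.04 on the 2 h arrays. Claudin 5, the main tight junction protein of brain endothelium, was higher by a like amount on each slide (1.94 ± 0.16, adjusted p = 3.33e-06). Flt1 had levels of 9.50, 9.10, 9.56 and 9.33 on the 24 h arrays, against 8.36, 7.96, 8.33 and 8.42 on the 2 h arrays. Flt1, a receptor of vascular endothelial growth factor, was likewise separate (1.11 ± 0.14, adjusted p = 0.000179). The co-receptor endoglin, Eng (1.503 ± 0.24, adjusted p = 0.000858), the transcription factor Sox18 (1.40 ± 0.25, adjusted p = 0.00201) and the junction protein Pecam1 (1.29 ± 0.28, adjusted p = 0.00671) rose too. Under the alternative settings their smallest changes were 0.46, 0.33 and 0.38, against 1.34, 1.74 and 0.99 for Vwf, Cldn5 and Flt1. The sizes of the Eng, Sox18 and Pecam1 rises thus depend on the processing. Gpr182, a receptor of endothelial cells, had levels of 7.99, 5.75, 7.16 and 6.97 on the 24 h arrays, against 4.94, 4.97, 5.01 and 5.27 on the 2 h arrays (1.92 ± 0.31, adjusted p = 0.000987). These 2 h levels lay near those of Usp18 and Fcgr4, which were undetected at 2 h, so the size of this rise is not exact. List means relative to the 2 h mean were 1.07, 0.63, 1.03 and 0.77 on 24 h replicates 1 to 4. Relative to sham, the median of the 19 genes was -0.53 in 2 h cortex, -0.37 in 8 h cortex and 0.54 in 24 h cortex. The number of markers with a mean above sham was 2 at 2 h, 1 at 8 h and 15 at 24 h, of 19. Ly6c1 belongs to both the endothelial and the macrophage list. Endothelial markers that fell numbered 2 without 24 h replicate 2.

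**Figure D3:**
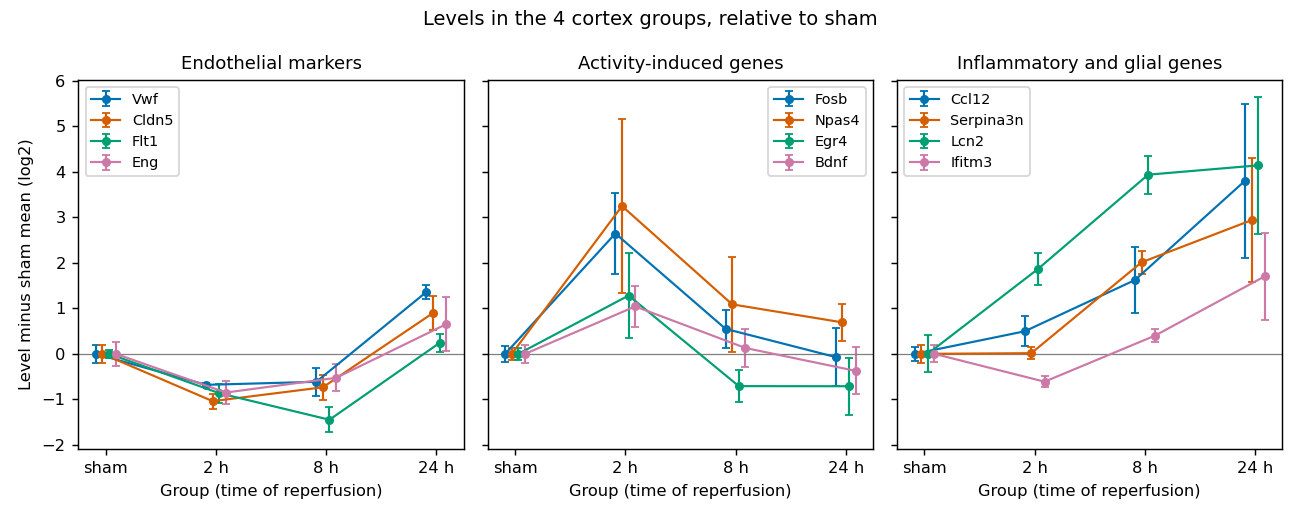
Mean level relative to the sham mean (log2, ± SD of 4 arrays) in sham, 2 h, 8 h and 24 h cortex for 4 endothelial, 4 activity-induced and 4 inflammatory or glial genes. Endothelial genes lie below sham at 2 h and 8 h and above it at 24 h, and activity-induced genes peak at 2 h.

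Other vessel genes were mixed. Of 8 pericyte and smooth muscle markers 0 rose and 0 fell, with a median of -0.10 and 4 above 0. Of 21 tested extracellular matrix genes, 4 rose and 1 fell, with a median change of 0.36. The basement membrane genes Hspg2 (0.90 ± 0.20, adjusted p = 0.00747), Col18a1 (0.84 ± 0.24, adjusted p = 0.0272) and Col4a2 (0.81 ± 0.22, adjusted p = 0.0207) rose, and the laminin subunit Lama2 fell (-0.54 ± 0.17, adjusted p = 0.0444). Icam2, an adhesion molecule of endothelium, rose (1.27 ± 0.24, adjusted p = 0.00263). Angpt2, a ligand that loosens vessel walls, rose (1.31 ± 0.37, adjusted p = 0.024), as did the insulin-like growth factor binding proteins Igfbp7 (1.84 ± 0.26, adjusted p = 0.00039) and Igfbp3 (1.73 ± 0.42, adjusted p = 0.0117). The calls of Col18a1, Col4a2, Lama2, Angpt2 and Igfbp3 were lost under at least 1 setting (highest adjusted p 0.0918, 0.0672, 0.151, 0.104 and 0.0686). Matrix genes that rose numbered 1 without 24 h replicate 1 and 9 without 24 h replicate 2, and the single fall was not called without 24 h replicates 1, 3 or 4 or 2 h replicates 2, 3 or 4. Pericyte and smooth muscle markers that rose numbered 2 without 24 h replicate 2, and those that fell 1 without 24 h replicates 2 or 3 or 2 h replicate 4.

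Genes of the cytoskeleton and of oxidative defence rose to a smaller extent. Of 28 tested actin and intermediate filament genes, 9 rose and 0 fell, with a median change of 0.34. Besides Vim and Capg, the Arp2/3 subunit Arpc1b (1.44 ± 0.25, adjusted p = 0.00174), the calcium-binding S100a11 (1.96 ± 0.34, adjusted p = 0.00151) and the membrane-binding Anxa2 (1.44 ± 0.34, adjusted p = 0.00945) rose. Of 23 tested oxidative stress and Nrf2 target genes, 7 rose and 0 fell, with a median change of 0.33. Gpx1 had levels of 12.61, 11.71, 12.19 and 12.38 on the 24 h arrays, against 11.73, 11.36, 11.74 and 11.77 on the 2 h arrays. Gpx1, the glutathione peroxidase that removes hydrogen peroxide, was lower on 2 h replicate 2 than on the other 2 h arrays, and its 24 h replicate 2 lay inside the 2 h range (0.57 ± 0.14, adjusted p = 0.0111). Gstp1 had levels of 11.59, 11.58, 11.40 and 11.56 on the 24 h arrays, against 11.10, 10.87, 11.07 and 11.08 on the 2 h arrays. Gstp1, a glutathione transferase, was higher on every 24 h array (0.50 ± 0.08, adjusted p = 0.00125). The glutathione synthesis subunit Gclm (0.75 ± 0.22, adjusted p = 0.0291), the microsomal transferase Mgst1 (0.67 ± 0.18, adjusted p = 0.0178) and the quinone reductase Nqo1 (0.52 ± 0.15, adjusted p = 0.0273) rose. Hmox1, which breaks down haem, had the largest change of the list but did not pass (1.57 ± 0.57, adjusted p = 0.0739), and passed with slide as a block (adjusted p = 0.043). The calls of Anxa2, Gpx1, Gclm, Mgst1 and Nqo1 were lost under at least 1 setting (highest adjusted p 0.0645, 0.0684, 0.109, 0.0753 and 0.0923). Without 24 h replicate 2, 16 actin and filament genes and 11 oxidative stress genes rose. The oxidative stress rises numbered 4 without 24 h replicates 1 or 4 or 2 h replicate 2, and the falls 1 without 24 h replicate 1.

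Neuronal genes were lower at 24 h by small amounts. Of 36 tested voltage-gated ion channels, 0 rose and 9 fell, with a median change of -0.32. The calcium channel subunit Cacna2d3 (-0.67 ± 0.17, adjusted p = 0.0158), the sodium channel Scn1a (-0.57 ± 0.12, adjusted p = 0.00468) and the potassium channel Kcnh3 (-0.71 ± 0.21, adjusted p = 0.0325) were among the falls. Of 12 tested glutamate receptor genes, 0 rose and 2 fell, with a median change of -0.32 (-0.25, taking members detected in 1 group only at their bound), the falls being the kainate receptor Grik1 (-0.75 ± 0.14, adjusted p = 0.00224) and the AMPA receptor Gria3 (-0.64 ± 0.17, adjusted p = 0.0215). Of 11 tested GABA receptor and synthesis genes, 0 rose and 3 fell, with a median change of -0.31. Gabrd had levels of 8.16, 9.30, 8.87 and 8.40 on the 24 h arrays, against 9.38, 9.57, 9.41 and 9.49 on the 2 h arrays. This subunit of extrasynaptic GABA receptors was lower on all 24 h arrays than on any 2 h array, with replicate 2 the highest of the 24 h arrays (-0.78 ± 0.19, adjusted p = 0.0108). Gabra3 fell too (-0.66 ± 0.16, adjusted p = 0.01). Of 21 tested synaptic vesicle and SNARE genes, 0 rose and 4 fell, with a median change of -0.11; Cplx2, a clamp of vesicle fusion (-0.61 ± 0.11, adjusted p = 0.00201), and the Rab3 effector Rph3a (-0.70 ± 0.15, adjusted p = 0.00593) had the largest falls.

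Markers of both interneurons and excitatory neurons included falls, 28.6% and 11.1% of those tested, against 7.16% of all genes. The excitatory share lay near that of all genes. Of 14 tested interneuron markers, 0 rose and 4 fell, with a median change of -0.13. Cort, a peptide of interneurons (-0.54 ± 0.12, adjusted p = 0.0073), Reln, a secreted guidance protein (-0.52 ± 0.12, adjusted p = 0.00961), the peptide Vip (-0.46 ± 0.15, adjusted p = 0.0444) and the calcium buffer Pvalb (-0.33 ± 0.10, adjusted p = 0.0435) fell. Of 18 tested cortical excitatory neuron markers, 0 rose and 2 fell, with a median change of -0.21, with falls of Nrn1, a neurite growth factor (-0.48 ± 0.12, adjusted p = 0.0154), and the kinase Camk2a (-0.43 ± 0.13, adjusted p = 0.0366). Slc17a7 had levels of 11.60, 11.77, 11.80 and 11.31 on the 24 h arrays, against 11.53, 11.86, 11.67 and 11.78 on the 2 h arrays. The vesicular glutamate transporter Slc17a7 overlapped between the groups (-0.09 ± 0.14, adjusted p = 0.7). The difference in counts between the interneuron and excitatory lists was not tested. Of 17 tested striatal projection neuron markers, 0 rose and 1 fell, with a median change of -0.53. Pde10a had levels of 5.67, 7.18, 6.13 and 6.22 on the 24 h arrays, against 7.10, 7.56, 7.20 and 7.82 on the 2 h arrays. This phosphodiesterase of striatal neurons fell in the cortex samples (-1.12 ± 0.27, adjusted p = 0.0115), while the dopamine receptor Drd2 did not pass (-0.72 ± 0.32, adjusted p = 0.137). Relative to the 2 h mean, the means of the 17 striatal markers were -1.21, 0.11, -0.85 and -0.22 on 24 h replicates 1 to 4, and those of 10 choroid plexus and ependymal markers were -1.54, 0.27, 0.45 and -0.999. Of the choroid plexus and ependymal markers 0 rose and 0 fell. How much neighbouring tissue each sample held, and its part in the neuronal values, was not tested.

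The neuronal counts depend on single arrays. With 1 array left out, 3 to 18 ion channel genes fell, the lowest without 2 h replicate 2 or 24 h replicate 1 and the highest without 24 h replicate 2. Falls among the 11 GABA genes numbered 7 without 24 h replicate 2. Those among glutamate receptors numbered 1 without 24 h replicates 1 or 4 or 2 h replicates 2 or 3 and 4 without 24 h replicate 2. Excitatory neuron markers that fell numbered 0 without 24 h replicates 1 or 4 and 5 without 24 h replicate 2, and interneuron markers that fell 2 without 24 h replicates 1, 3 or 4 or 2 h replicates 1, 2, 3 or 4. The striatal markers that fell numbered 10 without 24 h replicate 2, and 4 without 2 h replicate 1. The calls of Cacna2d3, Kcnh3, Gria3, Vip, Pvalb, Camk2a and Nrn1 were lost without at least 1 array (highest adjusted p 0.0812, 0.112, 0.0696, 0.153, 0.143, 0.125 and 0.0653).

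**Figure D4:**
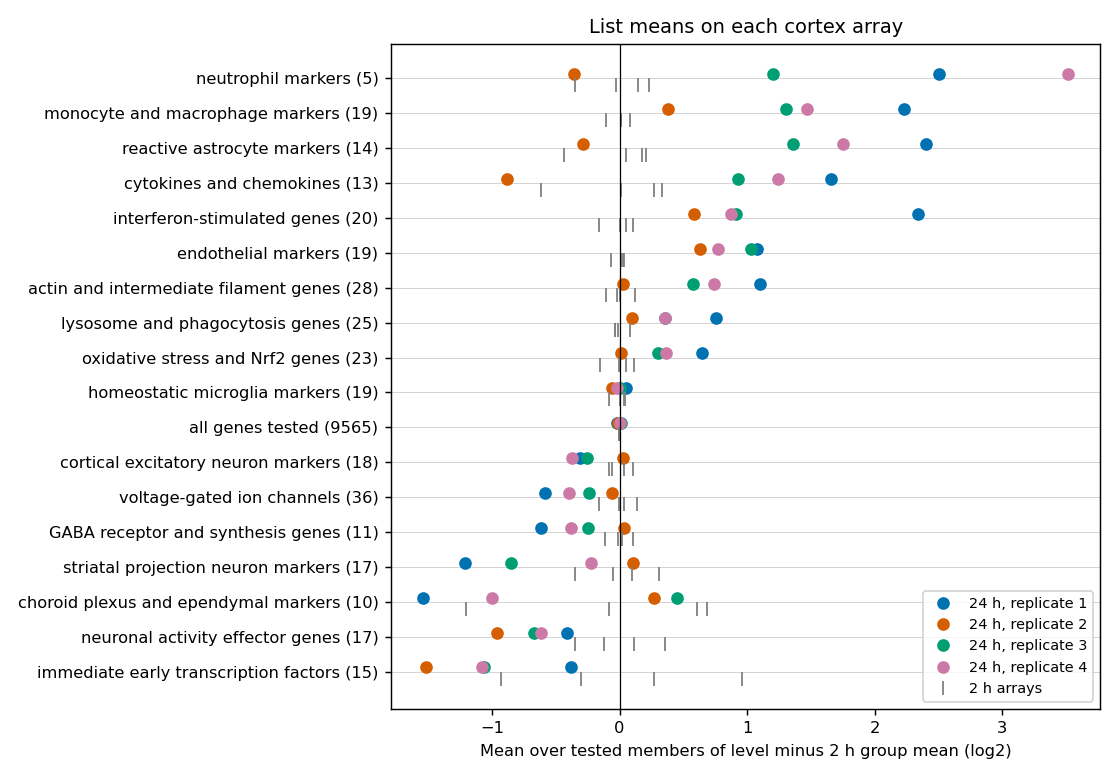
Mean over the tested members of 18 lists of the level minus the 2 h group mean (log2) on each 24 h array (coloured points) and each 2 h array (grey ticks). Replicate 2 (orange) lies at or below the lowest 2 h array for the neutrophil and cytokine lists, among them for the reactive astrocyte, ion channel and GABA lists, and above them for the interferon, endothelial and macrophage lists.

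On 24 h replicate 2 the lists thus did not shift by a common factor. Relative to 2 h, its macrophage, interferon and endothelial means were 0.38, 0.59 and 0.63, its cytokine and neutrophil means -0.88 and -0.35, and its immediate early mean -1.51, the lowest of the 4 arrays. Among the higher genes it was the 24 h array nearest to the 2 h mean for 398 of 617, and among the lower genes for 360 of 685. Sham arrays, relative to the 2 h mean, ran from -0.13 to -0.07 for macrophage and 0.21 to 0.48 for interferon means. For endothelial and cytokine means they ran from 0.37 to 0.59 and -1.15 to -1.05. For neutrophil and immediate early means they ran from -1.09 to -0.68 and -1.34 to -1.26. How far 24 h replicate 2 differed from sham was not tested.

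Myelin and oligodendrocyte genes changed little. Of 17 tested genes of oligodendrocytes and myelin, 0 rose and 2 fell, with a median change of -0.21. Ugt8a, an enzyme of myelin galactolipid synthesis, fell (-0.87 ± 0.16, adjusted p = 0.00198), while myelin basic protein, Mbp, had a change of 0.06 ± 0.08 (adjusted p = 0.656). The proteoglycans Bcan (-0.48 ± 0.14, adjusted p = 0.0296) and Cspg5 (-0.44 ± 0.13, adjusted p = 0.0321) were the falls among 7 precursor markers, and both calls were lost without at least 1 array (highest adjusted p 0.105 and 0.107). The precursor markers that fell numbered 0 without 24 h replicate 4 or 2 h replicates 3 or 4, and the oligodendrocyte genes that rose 2 without 24 h replicate 2.

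Metabolic and hormone-responsive genes were mostly lower where they changed. Of 20 tested genes of cholesterol synthesis and uptake, 1 rose and 4 fell, with a median change of -0.30. The enzymes Msmo1 (-0.76 ± 0.17, adjusted p = 0.00809), Mvd (-0.72 ± 0.21, adjusted p = 0.0263) and Cyp51 (-0.64 ± 0.17, adjusted p = 0.0182) fell, and the isomerase Ebp rose (0.55 ± 0.10, adjusted p = 0.0025). Of 22 tested glucocorticoid-responsive genes, 2 rose and 7 fell, with a median change of -0.19; the kinase Pdk4, which restrains glucose oxidation (-0.91 ± 0.27, adjusted p = 0.0296), and the growth factor signalling inhibitor Errfi1 (-0.88 ± 0.23, adjusted p = 0.0194) were among the falls. Of 18 tested circadian clock genes, 1 rose and 3 fell, with a median change of -0.20: Ciart (-0.96 ± 0.15, adjusted p = 0.000878), Cry2 (-0.47 ± 0.12, adjusted p = 0.0182) and Nr1d1 (-0.41 ± 0.11, adjusted p = 0.018), all repressors in the clock, fell and the kinase Csnk1e rose (0.48 ± 0.10, adjusted p = 0.00638). The labels used here give no clock time of sampling. The mTOR inhibitor Ddit4 fell (-0.70 ± 0.09, adjusted p = 0.000179), as did the endoplasmic reticulum gene Herpud1 (-0.27 ± 0.08, adjusted p = 0.0408) and the cochaperone Dnajb5 (-0.82 ± 0.18, adjusted p = 0.00633), and hexokinase 2, Hk2, rose (0.81 ± 0.21, adjusted p = 0.0145). Those were the called members of 17 heat shock, 20 endoplasmic reticulum stress and 20 hypoxia genes. Falls were 20%, 31.8% and 16.7% of the cholesterol, glucocorticoid and clock lists, and rises 5%, 9.09% and 5.56%. Heat shock and endoplasmic reticulum falls were 5.88% and 10%, and hypoxia rises 5%. Over all genes 7.16% fell and 6.45% rose. Apart from the cholesterol, glucocorticoid and clock falls, these shares lay near those of all genes. The inducible Hspa1b has no probe in the table used. The call of Pdk4 was lost under 6 of 22 settings, namely without 24 h replicates 2 or 3 or 2 h replicates 1, 3 or 4 and with the 2 groups alone (highest adjusted p 0.0849). That of Herpud1 was lost under 12 of 22 settings, among them leaving out 24 h replicates 1, 2 or 3 or 2 h replicates 1, 3 or 4 (highest adjusted p 0.114). The calls of Mvd, Cyp51, Errfi1, Cry2, Nr1d1, Csnk1e and Hk2 were lost under at least 1 other setting (highest adjusted p 0.0905, 0.0637, 0.0772, 0.0722, 0.0589, 0.0815 and 0.0719). With single arrays left out, glucocorticoid-responsive genes that fell numbered 4 without 24 h replicate 3 or 2 h replicate 4, and those that rose 1 without 24 h replicates 3 or 4 or 2 h replicates 1, 2 or 3. The circadian falls numbered 5 without 24 h replicate 2 or 2 h replicate 2, and the rises 2 without 24 h replicate 2. The heat shock falls numbered 3 without 2 h replicate 2, and the rises 1 without 24 h replicate 2. The falls of the endoplasmic reticulum list numbered 1 without 24 h replicates 1, 2 or 3 or 2 h replicates 1, 3 or 4, and the rises 4 without 24 h replicate 2. The hypoxia rises numbered 0 without 24 h replicate 4 or 2 h replicate 2 and 4 without 24 h replicate 2, and the falls 1 without 24 h replicate 2.

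Some genes of basic cell machinery were called, and the counts depend on the scaling and on single arrays. Against 6.45% of all genes called higher, of 38 ribosomal protein genes 6 rose (15.8%, median 0.18), of 27 proteasome subunits 4 rose (14.8%, median 0.16) and of 42 respiratory chain genes 3 rose (7.14%, near the share of all genes, median 0.06). With median scaling these counts were 1, 0 and 0. Ribosomal rises numbered 2 without 2 h replicate 2 and 19 without 24 h replicate 2, and proteasome rises 1 without 24 h replicate 4 or 2 h replicates 3 or 4 and 8 without 24 h replicate 2. Rps2 (0.49 ± 0.12, adjusted p = 0.015), the proteasome ATPase Psmc4 (0.27 ± 0.07, adjusted p = 0.0129) and the complex I subunit Ndufs3 (0.27 ± 0.06, adjusted p = 0.00879) were called members, and Psmc4 and Ndufs3 lost their calls with median scaling (highest adjusted p 0.227 and 0.385). Rps2 lost its call without 2 h replicate 2 and with the 2 groups alone (highest adjusted p 0.0753).

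The striatum of the same series allowed a comparison of the 24 h against 2 h change between tissues. Fitted over all 32 arrays and 10079 genes, the cortex change exceeded the striatum change for 123 genes (1.22%) and fell short of it for 99 (0.982%), with 1909 genes at an unadjusted p under 0.05. With median scaling no gene passed in limma, with 1493 genes at an unadjusted p under 0.05, so these differences depend on the scaling. The count ran from 74 without striatum 2 h replicate 1 to 503 without cortex 24 h replicate 2. Arhgap26, a GTPase activating protein gene, fell in the cortex (-1.10 ± 0.12, adjusted p = 5.92e-05) and had a change of -0.00405 in the striatum (difference -1.10 ± 0.18, adjusted p = 0.00546). Gpx3, the secreted glutathione peroxidase, had changes of 0.55 in the cortex and -0.84 in the striatum (difference 1.39 ± 0.33, adjusted p = 0.0267). Dusp6 had -1.02 in the cortex and 0.05 in the striatum (difference -1.07 ± 0.28, adjusted p = 0.0388). Gstp1 had 0.50 and -0.25 (difference 0.75 ± 0.15, adjusted p = 0.0123), and C1qb had 0.71 and -0.19 (difference 0.90 ± 0.24, adjusted p = 0.0449). None of the endothelial, interferon, macrophage, reactive astrocyte or immediate early genes tested differed between tissues by this test, in which a miss does not show equal changes. In the striatum 13 of 19 endothelial and 12 of 19 macrophage markers rose, against 12.1% of all genes, and 6 of 15 immediate early factors fell, against 11.1%. Of the genes in both fits, 257 rose in both tissues, 41.7% of the cortex and 21.9% of the striatum rises. Likewise 223 fell in both, 32.6% of the cortex and 20.6% of the striatum falls.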

How the data were processed

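The array intensity values are mean bead signals that the authors exported with BeadStudio 3.3.7 without normalization or background subtraction, per the file headers. Bead counts per probe are in the deposited tissue tables, per the file headers, and were used only to describe the arrays. Detection values, fractions equal to 1 minus the detection p-value, were deposited with them for each tissue, per the file headers. In the deposited series matrix the values are a ratio to the mean of the sham arrays of the tissue, as recomputation showed. The table of probe signals was used (25697 probes; 837 without any value were left out), and 8 columns of 1 array that match no sample were not used. The deposited cortex table gives 1 detection value per gene, so the p of each probe was looked up from its signal among single-probe genes. This look-up was checked on the striatum arrays only, for the probes of the remaining genes. Detection calls at p under 0.05 matched those given for at least 99.896% of these probes on each array. Probes were named through RefSeq accessions (23876), symbols (728) or synonyms (709), and 384 kept the file's name.

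With limma 3.58.1 (R 4.3.3), signals were background-corrected (normal-exponential, offset 16), quantile-normalised over 32 arrays and put on the log2 scale. Probes detected at p under 0.05 on all 4 arrays of at least 1 cortex group were kept, and the brightest probe stood for a gene. The 16 cortex arrays were fitted together (lmFit, eBayes with trend, 2-sided, Benjamini-Hochberg over all genes). A gene detected in only 1 of the 2 groups was given as "at least" a fold over the lowest detected signal. In a simulation of this comparison on 9565 genes, 27 of 50 genes changed 1.5-fold and 43 of 50 changed 2-fold were called. At each of 3-fold and 4-fold 50 of 50 were called, and 13 unchanged genes were called. Noise was drawn independently for each array, with the same SD in all groups for a gene. Only 50 genes were changed at each fold, fewer together than the 1302 called in these data, and the adjusted p depends on that share. The wider 24 h spread and the same-slide correlation were not simulated either, so recovery in these data can differ. The number of arrays limits the precision.

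The sample descriptions and the table's columns give different replicate numbers to the same signals: 32 of 32 agree in group, 0 of 32 in number. The numbers used are those of the columns. Equal numbers at 24 h and 2 h mean the same slide under either. Deviations of same-slide arrays correlated over genes at 0.228, 0.320, 0.149 and 0.148. The main fit had no slide term and so did not pair the arrays. Slide as a block, which pairs them, was run as an alternative. The value with slide as a block is given where it changes the call of a named gene. List counts are given without the block, which moved some of them. Falls went from 1 to 7 for striatal markers, 2 to 5 for glutamate receptors, 4 to 7 for cholesterol genes and 3 to 6 for clock genes. Rises went from 1 to 4 for hypoxia genes and 1 to 3 for neutrophil markers.

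Named genes were taken from the 15 largest rises and falls with separate arrays, up to 5 called members of each list, a fixed panel, the largest tissue differences and the promoters of 3 called genes; some genes this takes in are not reported here. The members, gene lists and panel were chosen with earlier results of these data known. Alternatives were other background, scaling, filter, probe and table choices, each array left out, slide or number as a block, no variance trend, array weights, the 2 groups alone, and a threshold of 0.01.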

Additional observations from a re-analysis of the deposited data

Results flagged for a closer look

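In 22 of 300 gene and group combinations of the named genes, 1 of 4 arrays stood apart by Dixon's test at its 95% level, where chance gives about 1 in 20. On 24 h replicate 1 the highest level stood apart for Npas4 (7.21, against 6.48 on the nearest array), Oasl2 (9.31, against 7.22 on the nearest array), Usp18 (8.997, against 6.72 on the nearest array), Ifi27l2a (10.39, against 8.02 on the nearest array), Isg15 (9.52, against 7.41 on the nearest array), Psmb9 (7.17, against 6.40 on the nearest array) and Aqp4 (10.22, against 9.95 on the nearest array). Of these 7 genes, Oasl2, Usp18, Isg15 and Psmb9 belong to the interferon list. On 24 h replicate 2, P2ry12 (6.96, against 5.77 on the nearest array) was high and Aspg (4.57, against 6.45 on the nearest array) was low. On 24 h replicate 4, Lama2 (5.48, against 6.12 on the nearest array) was low.

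At 2 h, replicate 2 was low for Timp1 (7.05, against 8.81 on the nearest array), Icam2 (5.12, against 5.78 on the nearest array), Gpx1 (11.36, against 11.73 on the nearest array), Gstp1 (10.87, against 11.07 on the nearest array) and Mbp (13.65, against 13.88 on the nearest array), and high for Hspg2 (6.26, against 5.96 on the nearest array) and Cspg5 (11.05, against 10.91 on the nearest array). High levels on 2 h replicate 1 were those of Ifitm2 (8.50, against 8.36 on the nearest array) and C4b (8.22, against 7.65 on the nearest array). On 2 h replicate 3, Isg15 (6.81, against 6.27 on the nearest array) was high and Eng (5.24, against 5.70 on the nearest array) was low, and on 2 h replicate 4 Ddit4 (10.11, against 9.98 on the nearest array) was high.

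The 24 h against 2 h change differed between cortex and striatum, by the test of the difference, for 10 named genes. Cortex minus striatum, the differences were 1.39 for Gpx3, 1.12 for Hspg2, 0.90 for C1qb, 0.83 for Csnk1e and 0.75 for Gstp1. They were -1.12 for the activin-like receptor Acvr1c, -1.11 for the phosphatase Pdp1, -1.10 for Arhgap26, -1.07 for Dusp6 and -1.09 for Ipcef1. Ipcef1 was detected on all 4 cortex arrays of 2 h but on none of the cortex 24 h or striatum arrays, so its difference rests on background signal there and is not an exact size; its cortex level was at least 1.33-fold lower at 24 h than at 2 h (adjusted p = 0.00225). With median scaling none of them passed.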

How the results depend on the processing

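The count of called genes (1302) stayed within 1.5 times under 13 of 15 settings that kept all arrays; it was 473 at an adjusted p under 0.01 and 594 with the 2 groups fitted alone. With 1 array left out it ran from 823 without 2 h replicate 4 to 2212 without 24 h replicate 2, with 854 and 824 without 2 h replicates 2 and 3 and 826 without 24 h replicate 4. An alternative chosen after seeing the data, slide as a block without 24 h replicate 2, gave 2338. With slide as a block (pairing) the count was 1648, with replicate number 1584; the block raised Fos, S100a8, S100a9, Timp1, Hmox1 and Gpx3 past the threshold and ended the call of no named gene. The tissue difference count (222) was 0 with median scaling, 82 with no detection filter, 79 with 4 groups alone, 146 with no variance trend, 380 with slide as a block and 628 with array weights, and from 74 to 503 with 1 array left out. Of 135 called genes among the named ones, 72 kept direction and call under every setting run and 0 reversed. Of the genes not called, 4 reversed. With 1 array left out, Atf3 ran from -1.26 to 0.242, Ccl4 from -1.42 to 0.143 (both above 0 without 24 h replicate 2), Slc17a7 from -0.155 to 0.00992 (above 0 without 24 h replicate 4) and Mbp from -0.00195 to 0.086 (below 0 without 2 h replicate 2). Atf3 was 0.087 with the slide block and without 24 h replicate 2, and Mbp -0.018 with median scaling. Causes were not tested. Genes near background have compressed changes, and only genes detected on all 4 arrays of a cortex group could be called. For some named genes the size moved with the setting while the call held. The changes smallest in size were 0.345 for Icam2, 0.378 for Capg, -0.262 for Tenm1 and -0.211 for Arhgap26.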

Other observations

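Growth factor and morphogen genes moved in both directions. Of 19 tested genes of transforming growth factor beta and bone morphogenetic protein signalling, 6 rose and 3 fell, with a median change of 0.06. Tgfbi had levels of 10.51, 7.07, 9.14 and 9.62 on the 24 h arrays, against 7.12, 6.36, 6.59 and 6.65 on the 2 h arrays. Tgfbi, a matrix protein induced by transforming growth factor beta, rose (2.41 ± 0.50, adjusted p = 0.00523), with replicate 2 below 2 h replicate 1. Id3 had levels of 7.65, 7.61, 7.39 and 7.34 on the 24 h arrays, against 6.52, 6.30, 6.56 and 6.41 on the 2 h arrays. The inhibitors of differentiation Id3 (1.05 ± 0.15, adjusted p = 0.00039) and Id1 (0.93 ± 0.22, adjusted p = 0.00992) rose, with all 24 h arrays of Id3 close together and above the 2 h arrays, and follistatin, Fst, which binds activins, fell (-0.75 ± 0.22, adjusted p = 0.0282). Of 21 tested growth factors and receptors, 5 rose and 2 fell, with a median change of -0.12; Bdnf was 1 of the falls, and Igfbp7, Igfbp3, Angpt2 and the binding protein Igfbp4 (0.70 ± 0.15, adjusted p = 0.00641) were among the rises. With single arrays left out, the growth factor rises numbered 3 without 2 h replicates 3 or 4, and the falls in transforming growth factor beta and bone morphogenetic protein signalling 1 without 24 h replicate 1 or 2 h replicate 4. The calls of Id1 and Fst were lost under at least 1 setting (highest adjusted p 0.0563 and 0.092).

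Called cell cycle genes went both ways, in counts of 1 or 2 per list and direction. Of 19 tested genes of the G1 and S phases, 2 rose (10.5%) and 1 fell (5.26%), with a median change of 0.10. Cyclin D1, Ccnd1, rose (0.56 ± 0.15, adjusted p = 0.0205). Of 6 tested genes of G2 and mitosis 1 rose and 1 fell (16.7% each). Over all genes, 6.45% rose and 7.16% fell. Cenpa had levels of 7.72, 7.76, 7.57 and 7.81 on the 24 h arrays, against 9.36, 8.33, 8.42 and 8.74 on the 2 h arrays. Cenpa, the centromere histone, was lower on all 24 h arrays (-0.998 ± 0.26, adjusted p = 0.018). H2bc6 had levels of 6.18, 5.79, 6.03 and 6.04 on the 24 h arrays, against 7.20, 6.95, 6.97 and 7.18 on the 2 h arrays. H2bc6, a histone H2B gene, was also lower on all 24 h arrays (-1.06 ± 0.12, adjusted p = 6.47e-05), and was the only histone gene of 13 that fell. The calls of Ccnd1 and Cenpa were lost under at least 1 setting (highest adjusted p 0.0779 and 0.055). The rises of the G1 and S list numbered 0 without 24 h replicates 1 or 3 and 6 without 24 h replicate 2, and the falls 0 without 24 h replicates 1 or 4 or 2 h replicates 2 or 3. In G2 and mitosis the rises numbered 0 without 24 h replicates 1 or 4 or 2 h replicate 3, and the falls 0 without 2 h replicate 1. Histone genes that fell numbered 2 without 24 h replicate 1.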
